A study of Homo sapiens with 4 samples.

Results

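The 10 genes described here encode the proteins that interconvert lactate and pyruvate, move them across membranes and decide whether pyruvate enters mitochondrial oxidation. They were taken by symbol from the first column of the deposited table: LDHA and LDHB (lactate dehydrogenases), SLC16A1, SLC16A3 and BSG (monocarboxylate carriers and their chaperone), MPC1 and MPC2 (mitochondrial pyruvate carrier) and PDK1, PDK2 and PDK3 (pyruvate dehydrogenase kinases). All 10 were among its 14431 genes, and all 10 passed the filter on low values. RNA was sequenced from HGC27, an established human gastric cancer cell line, in 2 control libraries (genotype WT) and 2 libraries with AARS1 knocked down by siRNA (siAARS1). AARS1 is the cytosolic alanyl-tRNA synthetase, which the study examined as an enzyme that attaches lactate to proteins. All 4 cultures were in DMEM without glucose, with serum and antibiotics, and received 25 mM lactate for 24 h per the labels. The text of the study gives another duration. Because both groups received lactate and lacked glucose, no effect of lactate itself could be measured. The labels do not say whether the duplicates were separate cultures, so p-values measure only the spread between these libraries.

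Lactate dehydrogenase works as a tetramer of A and B subunits that converts pyruvate and lactate into each other. Cells rich in the A subunit are classically associated with making lactate, and cells rich in the B subunit with using it. MCT1 (SLC16A1) and MCT4 (SLC16A3) carry lactate together with a proton across the plasma membrane, and basigin (BSG) brings both to the cell surface. Pyruvate enters the mitochondrial matrix through a carrier built of MPC1 and MPC2. There the pyruvate dehydrogenase complex turns it into acetyl-CoA, unless a pyruvate dehydrogenase kinase has phosphorylated and so inactivated the complex. In medium with lactate but no glucose, these steps are the route by which lactate can feed oxidation.

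Summed over the listed genes, each library had 30653210 to 33522573 reads, so that 1 read equalled 0.0293 to 0.0324 CPM (reads of a gene scaled to a common library size). The targeted gene, listed as AARS, measured 428 and 417 CPM in the controls against 292 and 298 CPM after knockdown, so 69.7% of its control level was left. Its log2 fold change was -0.52 on the deposited CPM and varied with the scaling described below. It was -0.29 after correction for GC content and length and -0.75 after median scaling. Of 19 marker genes of epithelial, mesenchymal, gastric, immune, fibroblast and endothelial cells, 7 had a row in the table. The epithelial markers EPCAM, KRT18 and KRT19 had none, and CDH1 and KRT8 summed to 27.0 to 27.3 CPM in control and 6.14 to 7.29 CPM in siAARS1 libraries. VIM and FN1 summed to 5143 to 5203 and 4651 to 4764 CPM, and the fibroblast markers COL1A1 and DCN to 2559 to 2649 and 1812 to 1902 CPM. The fibroblast markers went opposite ways. Mean COL1A1 was 2359 CPM in control and 1593 CPM in siAARS1, and mean DCN was 245 and 264 CPM. None of the 4 gastric differentiation markers and neither endothelial marker had a row, and of the immune markers CD68 alone was listed, at 0.486 to 1.103 CPM. Among the markers with a row, these levels show little epithelial and much mesenchymal RNA for a line labelled as gastric cancer cells. Whether markers without a row had low levels cannot be told, as mitochondrial genes (symbols starting with MT-) had no row either. The part of these marker shifts in the results below was not tested, and in bulk RNA a change in the number of cells of a type cannot be told apart from a change in RNA per cell.

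On the deposited CPM, LDHA and LDHB rose by almost the same factor, PDK1 was the kinase that rose, and BSG was the abundant gene that fell. These changes differed after the correction for GC content and length described below. Promoter sequences of these 4 genes, on which the results turn, are shown here. Each runs 5′ to 3′ on the strand of the gene, from 250 bases before to 50 bases after a RefSeq start (GRCh38.p14), namely the start nearest to the first base of the GENCODE v29 transcript used for length below (31 to 175 bases away). Capitals mark every match, on either strand, to ACGTG (the core of the hypoxia response element), CACGTG (the E-box bound by MYC and related factors, which contains the former), TGACGTCA (the cyclic AMP response element) or GGAATG (bound by TEAD). The sites are letter matches only.
LDHA, chr11:18394313-18394612, plus strand: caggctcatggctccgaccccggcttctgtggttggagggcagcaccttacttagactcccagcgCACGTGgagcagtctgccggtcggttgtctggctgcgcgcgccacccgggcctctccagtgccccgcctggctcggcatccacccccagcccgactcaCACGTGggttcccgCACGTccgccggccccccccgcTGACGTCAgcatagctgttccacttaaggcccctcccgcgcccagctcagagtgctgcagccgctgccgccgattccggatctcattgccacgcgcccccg
LDHB, chr12:21657793-21658092, minus strand: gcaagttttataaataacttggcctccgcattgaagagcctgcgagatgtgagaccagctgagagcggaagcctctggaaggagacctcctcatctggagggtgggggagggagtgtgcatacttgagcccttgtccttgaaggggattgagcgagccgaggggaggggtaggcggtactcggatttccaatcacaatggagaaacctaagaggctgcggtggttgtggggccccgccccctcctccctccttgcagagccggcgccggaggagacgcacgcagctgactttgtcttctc
PDK1, chr2:172555840-172556139, plus strand: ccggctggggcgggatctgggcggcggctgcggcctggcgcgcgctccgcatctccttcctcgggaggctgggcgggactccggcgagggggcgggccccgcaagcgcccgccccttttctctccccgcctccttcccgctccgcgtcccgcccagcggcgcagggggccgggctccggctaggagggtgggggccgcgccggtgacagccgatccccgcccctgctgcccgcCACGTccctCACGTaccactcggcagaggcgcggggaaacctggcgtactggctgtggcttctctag
BSG, chr19:572346-572645, plus strand: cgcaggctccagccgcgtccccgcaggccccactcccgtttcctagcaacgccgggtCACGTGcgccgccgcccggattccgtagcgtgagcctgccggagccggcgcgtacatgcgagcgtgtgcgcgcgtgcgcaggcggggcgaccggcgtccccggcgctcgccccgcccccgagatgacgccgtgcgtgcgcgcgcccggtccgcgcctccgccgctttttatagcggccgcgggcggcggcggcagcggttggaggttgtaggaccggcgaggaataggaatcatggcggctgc

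The LDHA promoter held 5 matches to ACGTG counted on both strands, all but 1 of them inside the 2 E-boxes, and 1 match to TGACGTCA. The E-boxes began 185 and 87 bases before the start and the cyclic AMP response element 51 bases before it. The LDHB promoter held no match to any of the 4 motifs. PDK1 had 2 matches to ACGTG, 17 and 8 bases before the start, and BSG had 1 E-box, 193 bases before the start. Among all 35116 RefSeq promoters of this length, 21.4% held ACGTG, 7.26% CACGTG, 1.85% TGACGTCA and 14.0% GGAATG. Of the 9 members with a promoter in the RefSeq table, GGAATG was found in PDK2 alone, which also had 1 E-box, and PDK3 had 1 match to ACGTG. MPC1, MPC2 and SLC16A3 had none of the 4 in the 1 window scanned per gene. Other starts were not scanned, of which several genes have some. SLC16A3 has 5 listed starts, and the nearest one, used here, lay 1212 bases from its GENCODE start. SLC16A1 had no entry.

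The comparison of siAARS1 with control asked how these transcripts respond to knockdown of AARS1 in lactate medium. All 10 genes passed the test on the deposited CPM, 4 of them higher (LDHA, LDHB, SLC16A1 and PDK1) and 6 lower (SLC16A3, BSG, MPC1, MPC2, PDK2 and PDK3). The same test called 70.7% of all 14199 genes tested, 32.6% higher and 38.0% lower, so a high share of calls is the rule in these libraries. The 2 groups did not overlap for any of the 10 genes, as for 85.1% of all genes tested. The median log2 fold change of the 10 genes was -0.23, and that of all genes tested was -0.05. Mean levels in siAARS1 ranged from 69.5% of control for PDK3 to 144% of control for PDK1. Each test was limma on log2(CPM + 1), with Benjamini-Hochberg adjustment over all genes tested and a threshold of 0.05. The scale understates changes of genes with few CPM.

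**Figure D1:**
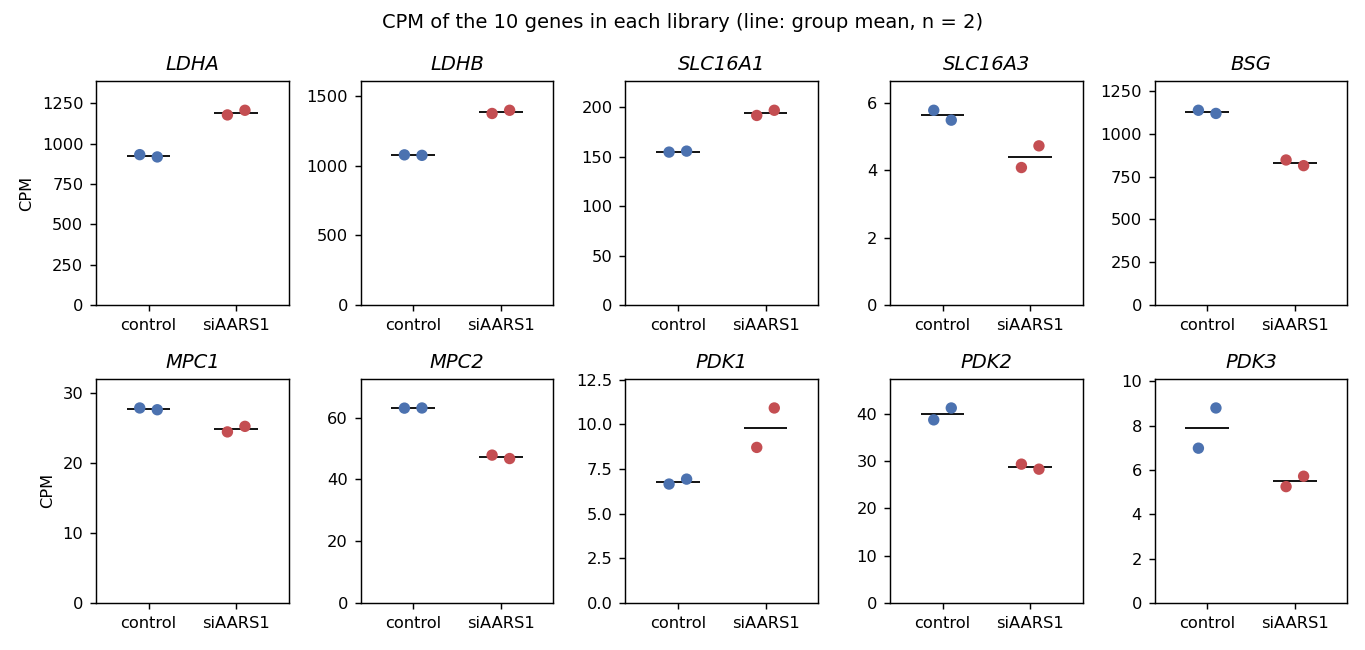
CPM of each of the 10 genes in the 2 control and the 2 siAARS1 libraries; each axis starts at 0, points are libraries and lines are group means. LDHA, LDHB, SLC16A1 and PDK1 lie above both controls in both siAARS1 libraries and the other 6 genes lie below them; SLC16A1, SLC16A3 and PDK1 changed sign after a correction for transcript GC content and length.

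Both lactate dehydrogenase genes were higher in siAARS1. LDHA (ENSG00000134333; chromosome 11, 18394388 to 18408425, GRCh38), the A subunit, measured 932 and 917 CPM in the controls against 1177 and 1206 CPM after knockdown. LDHB (ENSG00000111716; chromosome 12, 21635342 to 21757857), the B subunit, measured 1077 and 1073 CPM in the controls against 1373 and 1396 CPM after knockdown. For both genes the siAARS1 libraries lay far above the controls compared with the spread within a group. Mean LDHA rose from 924 ± 10.1 (SD, n = 2) to 1192 ± 20.3 CPM, or by 28.9%, with a log2 change of 0.37 (SE 0.034, limma adjusted p = 3.81e-09). Mean LDHB rose from 1075 ± 2.46 to 1384 ± 16.2 CPM, or by 28.8%, with a log2 change of 0.36 (SE 0.0337, limma adjusted p = 3.41e-09). Both were higher and past the threshold under every alternative run, over a range of 0.08 to 0.43 for LDHA and 0.14 to 0.42 for LDHB.

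The balance between the subunits differed between the groups by less than the spread of the libraries. The ratio of LDHA to LDHB in CPM was 0.865 and 0.855 in the control libraries and 0.858 and 0.864 in the siAARS1 libraries, so the groups overlapped. On the log2 scale the mean ratio was -0.22 ± 0.0124 (SD, n = 2) in control and -0.22 ± 0.00774 in siAARS1, with a difference of 0.0013 (exact permutation test, two-sided, p = 1). An exact test of 2 against 2 libraries cannot give a p-value below 0.333, so none of the ratios given here could pass a threshold of 0.05. A ratio within a library is free of library scaling but not of GC content or length, and after the correction described below the difference was -0.25. Per kilobase of transcript, LDHA made up 35.2% to 35.5% of the summed LDHA and LDHB level in all 4 libraries. LDHB was therefore the more abundant subunit transcript, with 699 CPM per kb in control against 383 CPM per kb for LDHA. With the median transcript length of each gene these were 757 and 506 CPM per kb. LDHA has processed copies in the genome. One of them, LDHAP4, was listed at 0.599 to 1.41 CPM, and reads could be split between near-identical copies.

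**Figure D2:**
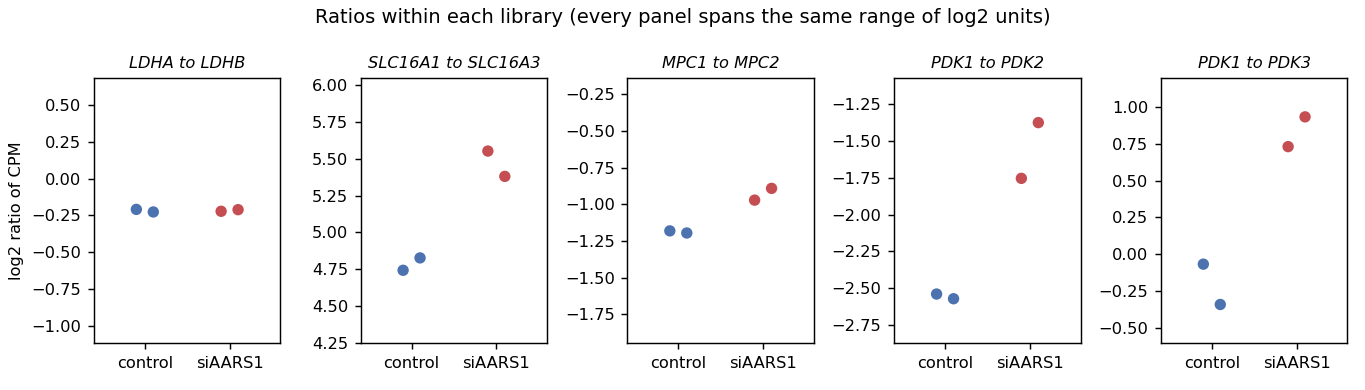
Log2 ratio of CPM of 5 pairs of genes within each library, control in blue and siAARS1 in red; each panel spans the same range of log2 units. LDHA to LDHB stays level while the other 4 ratios are higher in both siAARS1 libraries. All but MPC1 to MPC2 are lower in siAARS1 after the correction for GC content and length. For PDK1 to PDK3 this depended on the transcript chosen.

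The lactate carriers moved apart and their chaperone fell. SLC16A1 (ENSG00000155380; chromosome 1, 112911847 to 112957013), which encodes MCT1, measured 155 and 156 CPM in the controls against 192 and 197 CPM after knockdown. Both siAARS1 libraries were above both controls. Its level rose by 25.2%, with a log2 change of 0.32 (SE 0.0388, limma adjusted p = 2.10e-07). After correction for GC content and length it was lower instead, at -0.15 (limma adjusted p = 0.00035). SLC16A1 overlaps the antisense gene SLC16A1-AS1, which was listed at 2.62 to 2.90 CPM in control and 3.56 to 3.61 CPM in siAARS1 libraries. SLC16A3 (ENSG00000141526; chromosome 17, 82228397 to 82261129), which encodes MCT4, the carrier typical of cells that export lactate, had few reads. It measured 5.78 and 5.48 CPM in the controls against 4.08 and 4.72 CPM after knockdown, which are 197, 174, 126 and 157 reads. The groups did not overlap, but the exact 95% Poisson interval of the second control library (4.70 to 6.36 CPM) overlapped that of each siAARS1 library (3.40 to 4.86 and 4.01 to 5.52 CPM). Such intervals cover counting error only. The log2 fold change of SLC16A3 was -0.30 (95% interval -0.56 to -0.04, limma adjusted p = 0.0374). On the recovered reads it did not pass in edgeR with TMM (-0.32, adjusted p = 0.0635), with RLE or in DESeq2, but passed in edgeR with the upper quartile (-0.45, adjusted p = 0.00978) and with library size alone (-0.37, adjusted p = 0.031). It did not pass without control replicate 1 (-0.27), control replicate 2 (-0.33) or siAARS1 replicate 1 (-0.21, limma adjusted p = 0.212). After the correction it was 0.03 (limma adjusted p = 0.861). SLC16A3 overlaps CSNK1D on the other strand, which was listed at 152 to 188 CPM. Whether the reads were counted by strand is not given in the sources used here, so reads in any stretch that both genes share may not have been told apart.

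BSG (ENSG00000172270; chromosome 19, 571277 to 583493) was the most abundant of the 3 genes. It measured 1137 and 1118 CPM in the controls against 847 and 814 CPM after knockdown, with both siAARS1 libraries well below the controls. Its level fell by 26.4%, with a log2 change of -0.44 (SE 0.0348, limma adjusted p = 2.52e-10). Every alternative run kept BSG lower and past the threshold, but correction for GC content and length took most of the difference away (-0.07, limma adjusted p = 0.0214). AC009005.1, an antisense gene that overlaps BSG, was listed at 9.83 to 10.8 CPM. Per kilobase of transcript, BSG stood at 570 CPM per kb in control, SLC16A1 at 35.4 and SLC16A3 at 1.17. The SLC16A3 level rests on a transcript of 4830 bases and was 2.73 CPM per kb with the median length of its transcripts. The ratio of SLC16A1 to SLC16A3 in CPM was 26.8 and 28.4 in control and 47.0 and 41.7 in siAARS1 libraries, a difference of 0.68 on the log2 scale (exact permutation test, p = 0.333). After the correction this difference was -0.18.

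Both subunits of the mitochondrial pyruvate carrier were lower in siAARS1, MPC2 more than MPC1. MPC2 (ENSG00000143158; chromosome 1, 167916729 to 167937040) measured 63.1 and 63.2 CPM in the controls against 47.9 and 46.8 CPM after knockdown. The controls were almost equal and both siAARS1 libraries lay well below them. The fall was 25.0%, with a log2 change of -0.41 (SE 0.0512, limma adjusted p = 3.83e-07), and it grew to -0.76 after correction for GC content and length. MPC1 (ENSG00000060762; chromosome 6, 166364919 to 166383013) measured 27.8 and 27.6 CPM in the controls against 24.4 and 25.2 CPM after knockdown. Here the groups lay close together without overlapping. Its log2 fold change of -0.15 (95% interval -0.29 to -0.01) was just past the threshold (limma adjusted p = 0.0475). On the recovered reads it did not pass in edgeR with TMM (-0.12, adjusted p = 0.111), with RLE or in DESeq2, but passed in edgeR with the upper quartile (-0.25, adjusted p = 0.0018) and with library size alone (-0.17, adjusted p = 0.0252). It did not pass in any of the 4 fits that left out 1 library, where it ranged from -0.18 to -0.13. After the correction it was -0.21 and passed (limma adjusted p = 0.00545). The ratio of MPC1 to MPC2 was 0.441 and 0.437 in control and 0.510 and 0.539 in siAARS1 libraries, a log2 difference of 0.26 (exact permutation test, p = 0.333), and 0.56 after the correction. MPC2 overlaps DCAF6 on the other strand, which was listed at 62.3 to 63.4 CPM in control and 78.6 CPM in both siAARS1 libraries, so it differed in the opposite direction.

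On the deposited CPM PDK1 was higher while PDK2 and PDK3 were lower. After correction for GC content and length all 3 kinases were below 0, with PDK1 at -0.83 (limma adjusted p = 1.98e-06), or at -0.27 with the median length and GC content of its transcripts. PDK1 (ENSG00000152256; chromosome 2, 172555373 to 172608669), known as a target of hypoxia-inducible factor, measured 6.66 and 6.93 CPM in the controls against 8.71 and 10.9 CPM after knockdown. The siAARS1 libraries differed from each other by more than the nearer of them differed from the controls. The log2 fold change of PDK1 was 0.46 (SE 0.114, limma adjusted p = 0.00112), and without siAARS1 replicate 2 it was 0.32 and no longer passed (limma adjusted p = 0.0525). PDK2 (ENSG00000005882; chromosome 17, 50094737 to 50112152), a broadly expressed kinase of the family, measured 38.7 and 41.3 CPM in the controls against 29.4 and 28.3 CPM after knockdown. Both siAARS1 libraries were clearly below the controls. It differed by -0.46 on the log2 scale (SE 0.0625, limma adjusted p = 1.27e-06), and it was -0.11 and not past the threshold after correction for GC content and length (limma adjusted p = 0.0727). SAMD14, which overlaps PDK2 on the other strand, was also lower in siAARS1, at 27.6 to 27.9 CPM in control and 13.57 to 14.95 CPM in siAARS1 libraries. PDK3 (ENSG00000067992; chromosome X, 24465221 to 24541862) measured 6.98 and 8.79 CPM in the controls against 5.25 and 5.72 CPM after knockdown. Here the controls were spread more widely than the siAARS1 libraries. The log2 fold change of PDK3 was -0.45 (SE 0.122, limma adjusted p = 0.00257), and without control replicate 2 it was -0.30 and did not pass (limma adjusted p = 0.0714).

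Summed over the 3 kinases, the level was 52.4 and 57.0 CPM in the controls against 43.3 and 44.9 CPM after knockdown. Per kilobase of transcript PDK2 was the highest of them in control, at 11.6 CPM per kb, PDK3 followed at 4.11 and PDK1 was lowest at 0.479. With the median transcript lengths the order was the same, at 16.0, 4.23 and 2.27 CPM per kb. The ratio of PDK1 to PDK2 in CPM was 0.172 and 0.168 in control and 0.297 and 0.386 in siAARS1 libraries, close to a doubling (log2 difference 0.99). The ratio of PDK1 to PDK3 differed by 1.04. For both ratios the exact permutation test gave p = 0.333, its smallest value, and the differences turned to -0.71 and -0.23 after the correction. Corrected ratios were not run with the median length and GC content of the transcripts. In that form the single genes were at -0.27 (PDK1), -0.12 (PDK2) and -0.59 (PDK3). PDK1 then fell less than PDK3, so the turn of their ratio depended on the transcript chosen. PDK4, the remaining kinase, had no row in the table used here.

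Fold changes in these libraries followed the base composition of transcripts, and the 10 genes span much of that range. Across 13819 genes with a value, the log2 fold change had a rank correlation of -0.65 with transcript GC content and of 0.30 with transcript length (genes are not independent and share the 4 libraries). LDHA, LDHB, SLC16A1 and PDK1, the genes that were higher, had transcripts with 39.8% to 46.5% GC. SLC16A3, BSG and PDK2 had 59.8% to 62.7% GC and were lower. MPC1, MPC2 and PDK3 were lower although their transcripts had 42.2% to 44.1% GC, in the range of the genes that were higher. Removing the smooth trend of each library on GC content and length left LDHA (0.14) and LDHB (0.38) higher and MPC1 (-0.21), MPC2 (-0.76), PDK3 (-0.59) and BSG (-0.07) lower, all past the threshold. SLC16A1 (-0.15) and PDK1 (-0.83) passed it as lower, while SLC16A3 and PDK2 did not pass it. The value of PDK1 depended on the transcript chosen. Its principal transcript of 14193 bases was longer than those of 99.2% of the genes, and with the median length and GC content of its transcripts the corrected change was -0.27 (limma adjusted p = 0.0308). After the correction 2 of the 10 genes were called higher and 6 lower, and over all genes 66.3% were called, 33.5% higher and 32.9% lower. Any real change that tracks GC content or length is removed as well.

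**Figure D3:**
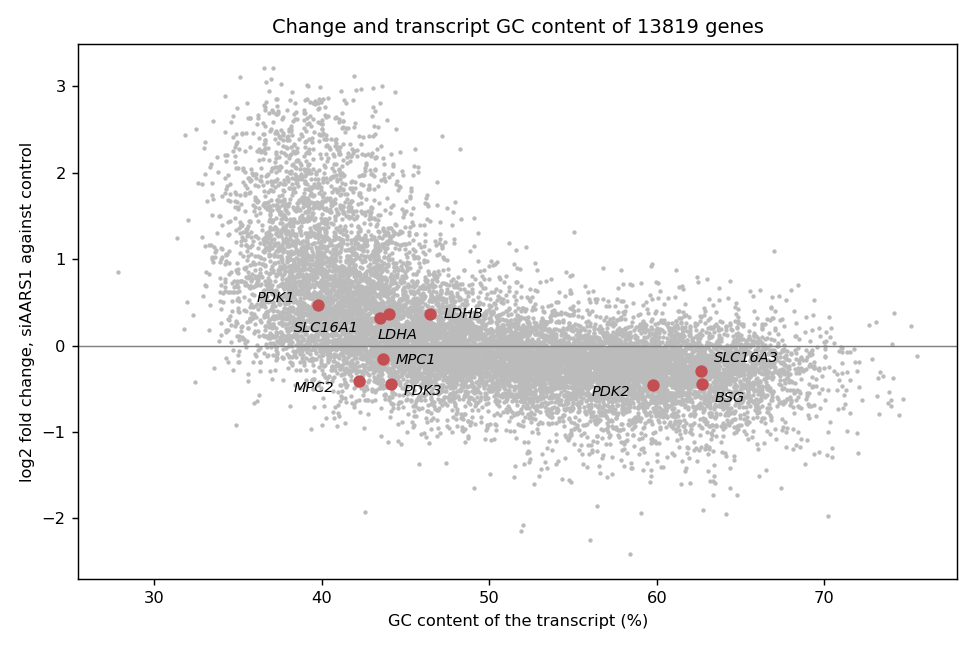
Log2 fold change of siAARS1 against control (vertical axis) by GC content of the transcript (horizontal axis, percent) for 13819 genes in grey and the 10 genes in red. BSG, SLC16A3 and PDK2 lie at the GC-rich end among genes that were lower, while MPC1, MPC2 and PDK3 lie below 0 at a GC content where LDHA, LDHB and SLC16A1 lie above it.

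**Figure D4:**
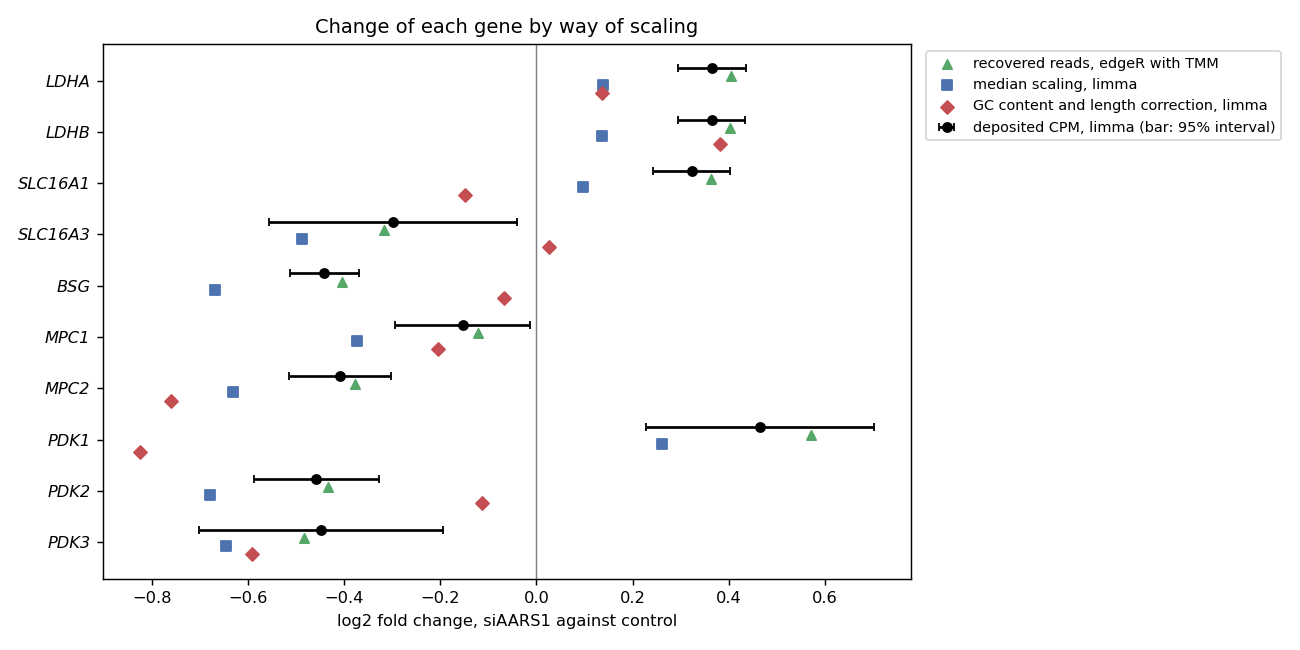
Log2 fold change of the 10 genes (horizontal axis) on the deposited CPM with its 95% interval (black), in edgeR with TMM on recovered reads (green), after median scaling (blue) and after correction for GC content and length (red). LDHA and LDHB stay above 0 and BSG, MPC1, MPC2, PDK2 and PDK3 below 0 in all 4, while SLC16A1, SLC16A3 and PDK1 change sign after the correction.

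Scaling each library to the same median moved the median over all genes, as log2 fold change, from -0.05 to -0.26. With this scaling 23.9% of all genes were called higher and 56.3% lower, against 4 and 6 of the 10 members. No member changed sign or call, but the rises shrank, to 0.14 for LDHA, 0.14 for LDHB, 0.10 for SLC16A1 and 0.26 for PDK1. Relative to the median gene they were alike under both scalings. LDHA lay 0.42 above the median gene on the deposited CPM and 0.40 above it after median scaling.

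Outside the 10 genes, 36 other genes of lactate and pyruvate handling and their regulators were followed, of which 25 had a row. Of these, 11 were higher, 9 lower and 5 not called, with a median log2 fold change of 0.05, beside 32.6% of all genes called higher and 38.0% lower with a median of -0.05. After the correction 9 of the 25 were called higher and 10 lower, and their median was -0.15. Over all genes the correction left 33.5% called higher and 32.9% lower, with a median of -0.00043. Within the pyruvate dehydrogenase complex the subunits divided. Both subunits of E1, the enzyme that the kinases phosphorylate, were lower. PDHA1 measured 96.8 and 97.4 CPM in the controls against 84.4 and 83.9 CPM after knockdown (log2 fold change -0.20, limma adjusted p = 0.000326), and PDHB changed by -0.24. The other components were higher. DLD, the E3 subunit shared with other dehydrogenase complexes, measured 45.6 and 46.4 CPM in the controls against 107 and 117 CPM after knockdown, a log2 change of 1.27 (limma adjusted p = 2.37e-15). PDHX, which anchors E3, changed by 0.67 and DLAT, the E2 core, by 0.45. After correction for GC content and length PDHA1 (-0.27) and PDHB (-0.33) stayed lower and DLD (0.36) and PDHX (0.33) higher, while DLAT was at -0.05 and did not pass the threshold. With transcript medians in the correction DLAT was lower (-0.48, limma adjusted p = 2.49e-10). The phosphatases that reverse the kinases were not called, at 0.13 for PDP1, -0.09 for PDP2 and 0.05 for PDPR, with 95% intervals that together spanned -0.21 to 0.33. After the correction all 3 passed the threshold, PDP1 (-0.67) and PDP2 (-0.56) as lower and PDPR (0.10, limma adjusted p = 0.0426) as higher.

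Other lactate carriers with low levels were higher. SLC16A7, which encodes MCT2, a carrier of high affinity, measured 5.98 and 6.12 CPM in the controls against 14.2 and 15.4 CPM after knockdown (log2 fold change 1.16, limma adjusted p = 1.22e-09). SLC5A12, a sodium-coupled lactate transporter, rose from 4.49 to 11.3 CPM (1.17). EMB, which escorts MCT2 to the membrane, rose from 5.34 to 9.29 CPM (0.70). All 3 transcripts have 33.3% to 38.3% GC, and after the correction SLC16A7 was at -0.46, EMB at -0.36 and SLC5A12 at 0.0063. The value of SLC16A7 depended on the transcript chosen, and with transcript medians it stayed higher (0.70, limma adjusted p = 1.46e-06), while EMB (-0.01) and SLC5A12 (0.18) did not pass. NPTN, a relative of basigin, was not called on the deposited CPM (-0.04, 95% interval -0.15 to 0.08), but passed as lower after median scaling (-0.26).

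Among enzymes that make or use pyruvate, PKM, the last step of glycolysis, was not called. It measured 1467 and 1468 CPM in the controls against 1428 and 1388.5 CPM after knockdown (log2 fold change -0.06, 95% interval -0.13 to 0.01), and it was 0.27 after the correction. PC, which carboxylates pyruvate, was higher (0.21) and stayed higher after the correction (0.58), but was -0.0061 after median scaling and did not pass without control replicate 2 or without siAARS1 replicate 1 (0.16 in both). The malic enzyme genes ME1 (0.27) and ME2 (0.32) were higher and turned to -0.55 and -0.91 after the correction. The alanine transaminases GPT (-0.47) and GPT2 (-0.16) were lower on the deposited CPM, and so was LDHD, which oxidizes D-lactate, at 1.17 against 1.99 CPM (-0.45). After the correction GPT (-0.15, limma adjusted p = 0.3) and LDHD (-0.22, limma adjusted p = 0.247) did not pass and GPT2 was higher (0.12, limma adjusted p = 0.0101). Without siAARS1 replicate 2 none of the 3 passed, at -0.33 for GPT, -0.10 for GPT2 and -0.41 for LDHD, and LDHD also did not pass without control replicate 1 (-0.26) or siAARS1 replicate 1 (-0.49).

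Of the regulators, HIF1A, the oxygen-regulated subunit of hypoxia-inducible factor, had the largest change of the 25 genes. It measured 23.6 and 24.1 CPM in the controls against 123 and 137 CPM after knockdown, 543% of control (log2 fold change 2.39, limma adjusted p = 2.73e-19), and was still higher after the correction (1.45). Its partner ARNT was lower (-0.24, and -0.29 after the correction). EPAS1 had 0.870 against 1.41 CPM and lay at the threshold (-0.37, limma adjusted p = 0.0499). It did not pass in 15 of 18 alternatives, among them the fit without the filter (limma adjusted p = 0.0619), each fit without 1 library (-0.44 to -0.30) and the correction (-0.26). MYC was at 362 and 372 CPM in the controls against 397 and 381 CPM after knockdown, higher by 0.08 on the deposited CPM (limma adjusted p = 0.046) and at -0.14 after median scaling, which moves all genes. Relative to the median gene MYC lay at 0.14 and 0.12 under these scalings, and after the correction it was higher by 0.42 (limma adjusted p = 5.91e-10). Its call on the deposited CPM was lost without control replicate 1 (0.07), control replicate 2 (0.10) or siAARS1 replicate 1 (0.05). ESRRA (-0.21) and PPARD (-0.49), which take part in oxidative and fatty acid metabolism, were lower. After the correction ESRRA was 0.16 and PPARD was -0.16 (limma adjusted p = 0.0102 for PPARD).

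**Figure D5:**
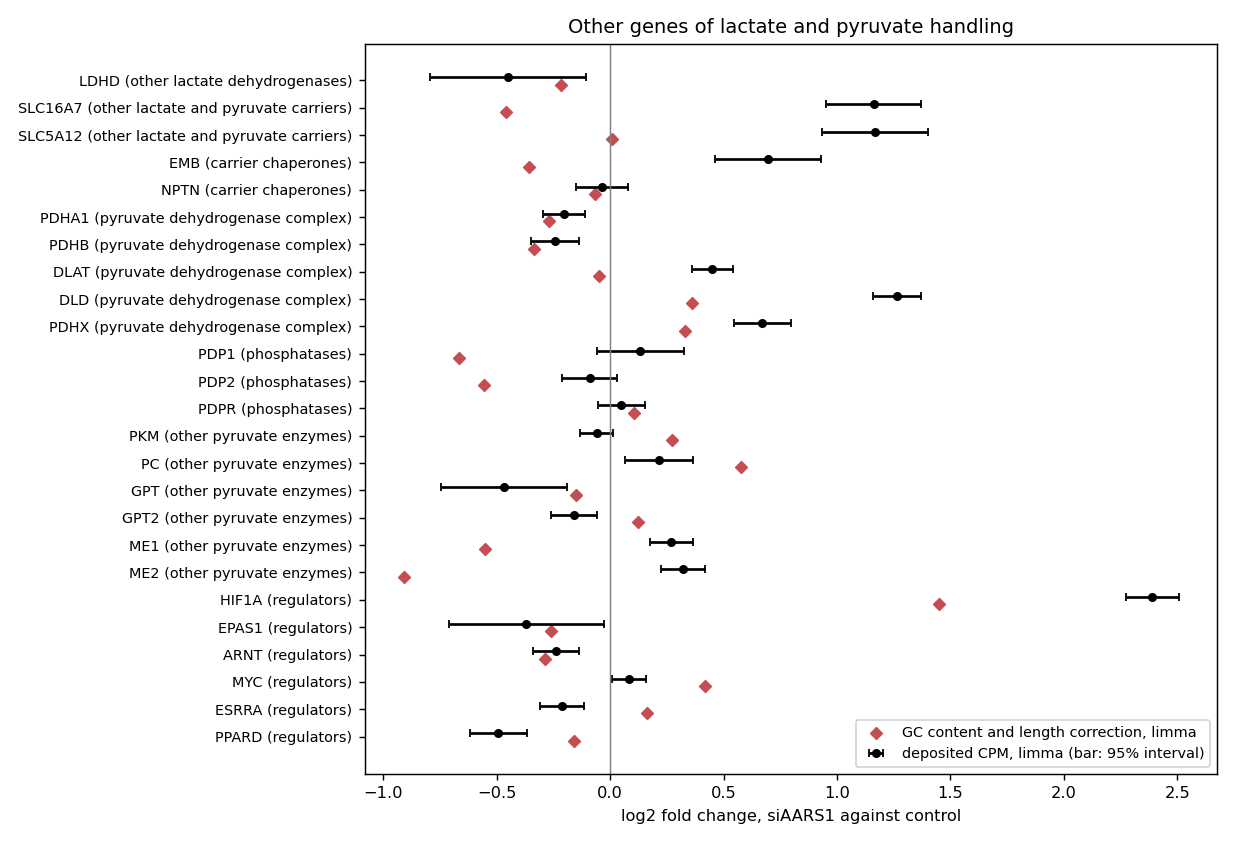
Log2 fold change of siAARS1 against control for 25 other genes of lactate and pyruvate handling and regulators, with their role in brackets; black points with 95% intervals are deposited CPM and red diamonds are after correction for GC content and length. PDHA1 and PDHB lie below 0 and DLD, PDHX and HIF1A above 0 in both; SLC16A7, EMB, DLAT, ME1, ME2, PKM, GPT2, PDP1 and ESRRA change sign.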

How the data were processed

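RNA-seq of 2 control and 2 siAARS1 libraries was used, grouped by the sample titles. The authors deposited 1 table of CPM values, and the submitters' processing notes name RSEM 1.3.3 and hg38 without a role. Annotation and use of strand are not given in the sources used here. In each library 100% of the CPM values were whole multiples of 1 read (tolerance 0.00051 CPM), which gave the recovered reads. Every one of the 14431 genes exceeded 1 CPM in at least 1 library. Chi-square per gene between replicates was 3.62 (control) and 3.60 (siAARS1), above the 1 that counting alone would give, so no library was treated as a repeat of another.

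limma 3.58.1 (eBayes with trend, R 4.3.3) was fitted to log2(CPM + 1) for 14199 genes whose mean reached 1 CPM in either group, with group as the only term. Alternatives used edgeR 4.0.16 and DESeq2 1.42.0 on recovered reads, and mgcv 1.9.3 to remove each library's trend on transcript GC content and length, known for 97.2% of the genes (GENCODE 29 principal transcript, matched by gene identifier). The limma fit, edgeR with TMM and the correction were also run on simulated data, and DESeq2 was not. Levels between genes are per kilobase of that transcript. In the table's second annotation column SLC16A3 is named MIR6787, so the first was used. Members, lists and alternatives were chosen with earlier results of these data known. The text names every member, the targeted gene and, by role, list genes with a row.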

Additional observations from a re-analysis of the deposited data

How the results depend on the processing

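The number of the 10 genes called stayed within 7 to 10 under all alternatives, and the 7 to 8 calls in fits without 1 library had 3 to 4 higher and 3 to 5 lower. Over all genes the same alternatives called from 8328 of 14431 (DESeq2) to 11378 of 14199 (median scaling). For the changes below, the cause was not tested, except that a fit without 1 library has fewer samples. Median scaling moves every gene in the same direction, by less for genes with few CPM. After correction for GC content and length, alone, with the replicate block or by transcript medians (the latter chosen after seeing the data), 2 members were called higher. Of the other genes of the pathway, median scaling called 7 higher and 14 lower, beside 23.9% and 56.3% of all genes. DESeq2 called 5 of them lower, beside 3830 of all 14431 genes. Each fit without 1 library called fewer of them than the main fit. Among all genes the share of higher calls was 46.2% on the deposited CPM, 29.8% after median scaling, 37.0% after quantile normalization and 38.1% in edgeR with the upper quartile.

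Control and siAARS1 carry the same replicate numbers, which no label calls pairs, and deviations of same-numbered libraries correlated at 0.118. With the replicate block all 10 members were called, as without it, beside 10389 of all 14199 genes with it and 10032 without it.

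Signs that turned with the correction, alone or with the replicate block, and by transcript medians in that order, were SLC16A1 (-0.15, -0.47), SLC16A3 (0.026, 0.027), PDK1 (-0.83, -0.27), EMB (-0.36, -0.011), DLAT (-0.050, -0.48), PDP1 (-0.67, -0.44), PKM (0.27, 0.26), GPT2 (0.12, 0.11), ME1 (-0.55, -0.77), ME2 (-0.91, -0.31) and ESRRA (0.16, 0.17). SLC16A7 turned with the first form (-0.46) and NPTN with the second (0.033). Median scaling turned PDP1 (-0.078), PDPR (-0.18), PC (-0.0061) and MYC (-0.14), quantile normalization PDP1 (-0.12) and PDPR (-0.036), and edgeR with the upper quartile PDPR (-0.042) and MYC (-0.0087). NPTN was near 0 on the deposited CPM. It ran from -0.081 to 0.0090 in fits without 1 library (above 0 without control replicate 2). In edgeR it was 0.0013 and 0.0012 with TMM (filtered and not) and 0.016 with RLE, and it was 0.015 in DESeq2. It passed as lower after median scaling (-0.26), after quantile normalization (-0.18) and in edgeR with the upper quartile (-0.13). Ratios were corrected with the first form only. They turned to -0.25 (LDHA to LDHB), -0.18 (SLC16A1 to SLC16A3), -0.71 (PDK1 to PDK2) and -0.23 (PDK1 to PDK3). By transcript medians PDK1 (-0.27) fell less than PDK3 (-0.59). LDHA to LDHB ran from -0.0074 to 0.010 in fits without 1 library. Genes under 10 CPM rest on 126 to 363 reads per library among the members, which limits SLC16A3, PDK1 and PDK3.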
